A study of Mus musculus with 8 samples.

Results

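The 46 genes described here are ligands, secreted modulators, receptors, cytoplasmic relay proteins and nuclear partners of the Wnt pathway. They were taken by symbol from the 32285 genes counted in single-nucleus RNA libraries of the mouse cerebral cortex, and all 46 were found. They comprise 8 Wnt ligands, 3 secreted modulators, 8 genes of the R-spondin axis, 12 receptors and co-receptors, 8 relay and destruction complex genes, and 7 genes for beta-catenin and its nuclear partners. The cortex came from 8 C57BL/6J mice at postnatal day 25, with the medial cortex removed. There were 4 wild type (WT) mice and 4 mice heterozygous for Chd8 (Chd8+/-, here Chd8 het), with 2 males and 2 females of each genotype, in 4 pairs matched for litter and sex. Each mouse gave 1 library, replicate 1 of each sex and genotype being single-indexed and replicate 2 dual-indexed. Which Chd8 allele they carry is not stated in the labels. The question put to these genes was which cell types carry which step of the pathway, and whether heterozygosity for Chd8, whose product is a reported regulator of beta-catenin, goes with a change in any of them.

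Wnt ligands are secreted lipid-modified proteins that bind Frizzled receptors and the co-receptors Lrp5 and Lrp6. In their absence a destruction complex of Axin, Apc and Gsk3b marks beta-catenin for degradation, and receptor binding, relayed by the Dishevelled proteins, stops this so that beta-catenin enters the nucleus and acts with TCF and LEF factors. R-spondins bind Lgr receptors and remove the ubiquitin ligases Znrf3 and Rnf43, which would otherwise clear Frizzled receptors. In the brain the pathway is best known for forming the blood-brain barrier in endothelium and for the timing of oligodendrocyte differentiation.

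The libraries held 69503598 to 98132783 UMIs (unique molecular identifiers, each counting 1 captured RNA molecule), and 77890 nuclei were kept, 7503 to 10988 per library. Between 27 and 63 cell barcodes were shared by each of the 28 pairs of libraries. Median UMIs per nucleus were 4970 to 5948 in single-indexed and 5984 to 7467 in dual-indexed libraries, and index type was balanced over genotype. Over all kept nuclei the 4 single-indexed and the 4 dual-indexed libraries did not overlap for 15 of the 46 members (32.6%) and for 32.2% of all genes. Chd8 itself was at 78.9 ± 2.77 CPM (UMIs of a gene scaled to a common library total, the usual CPM, mean ± SD, n = 4) in WT and 80.2 ± 6.31 CPM in Chd8 het libraries. It was lower in the heterozygote in 2 of 4 pairs, so its summed 3' count does not check the genotype labels, and the libraries are named here by their labels. Nuclei were grouped by clustering without the Wnt genes and clusters were named by marker lists, so a class name means resemblance. In all, 58154 nuclei lay in named classes, 320 of them in a striatal projection class that had no nuclei in 2 libraries and is not described here. The other 19 classes had levels in every library. They were intratelencephalic (IT) neurons (L2/3 IT, L4/5 IT, Deep IT and Car3 IT), extratelencephalic (L5 ET), near-projecting (L5/6 NP), corticothalamic (L6 CT) and L6b neurons, Pvalb, Sst, Vip and Lamp5 interneurons, astrocytes, oligodendrocyte precursor cells (OPC), committed precursors (COP), oligodendrocytes, endothelial and mural cells, and vascular and leptomeningeal cells (VLMC). A microglia-like group of 3789 nuclei, in which Ikzf1, Ly86 and Siglech were among the leading genes, kept the number cluster 4. It raised all 7 listed microglia markers, but its UMIs were low and none of these 7 was among its leading genes.

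Levels were compared between classes gene by gene, as CPM of the UMIs summed per library and class, with the mean ± SD over 8 libraries. The highest class was a glial or vascular one for 34 of 46 members, and a vascular one for 25. This is near what all genes gave. Among the 16568 genes with at least 500 UMIs, 69.2% peaked outside neurons and 44.8% in a vascular class. Of the 40 members with that many UMIs, 29 peaked outside neurons and 21 in a vascular class. Means of the smallest classes are noisy, with 12 to 42 Car3 IT, 18 to 62 mural and 29 to 93 endothelial nuclei per library. The ranges over libraries of the highest and the second class did not overlap for 10 members, Ctnnb1, Tcf7l2, Lef1, Apc, Fzd4, Wnt4, Wnt5a, Rspo3, Lgr6 and Znrf3. These are 10 of the 40 members with at least 500 UMIs, and 11.9% of all genes with that many UMIs had such separate ranges. A level for RNA carried over from other cells was set for each class, as the median share of the all-nuclei level at which the marker genes of other cell groups appeared there. It ran from 21.3% of the all-nuclei level in L5 ET to 73.5% in VLMC, and 682 of 874 pairs of member and class lay above it. A marker gene that a class truly expresses at a low level raises this value. As it is a median, many of the markers that set it also lie above it, so a level above it is not by itself evidence of expression.

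**Figure D1:**
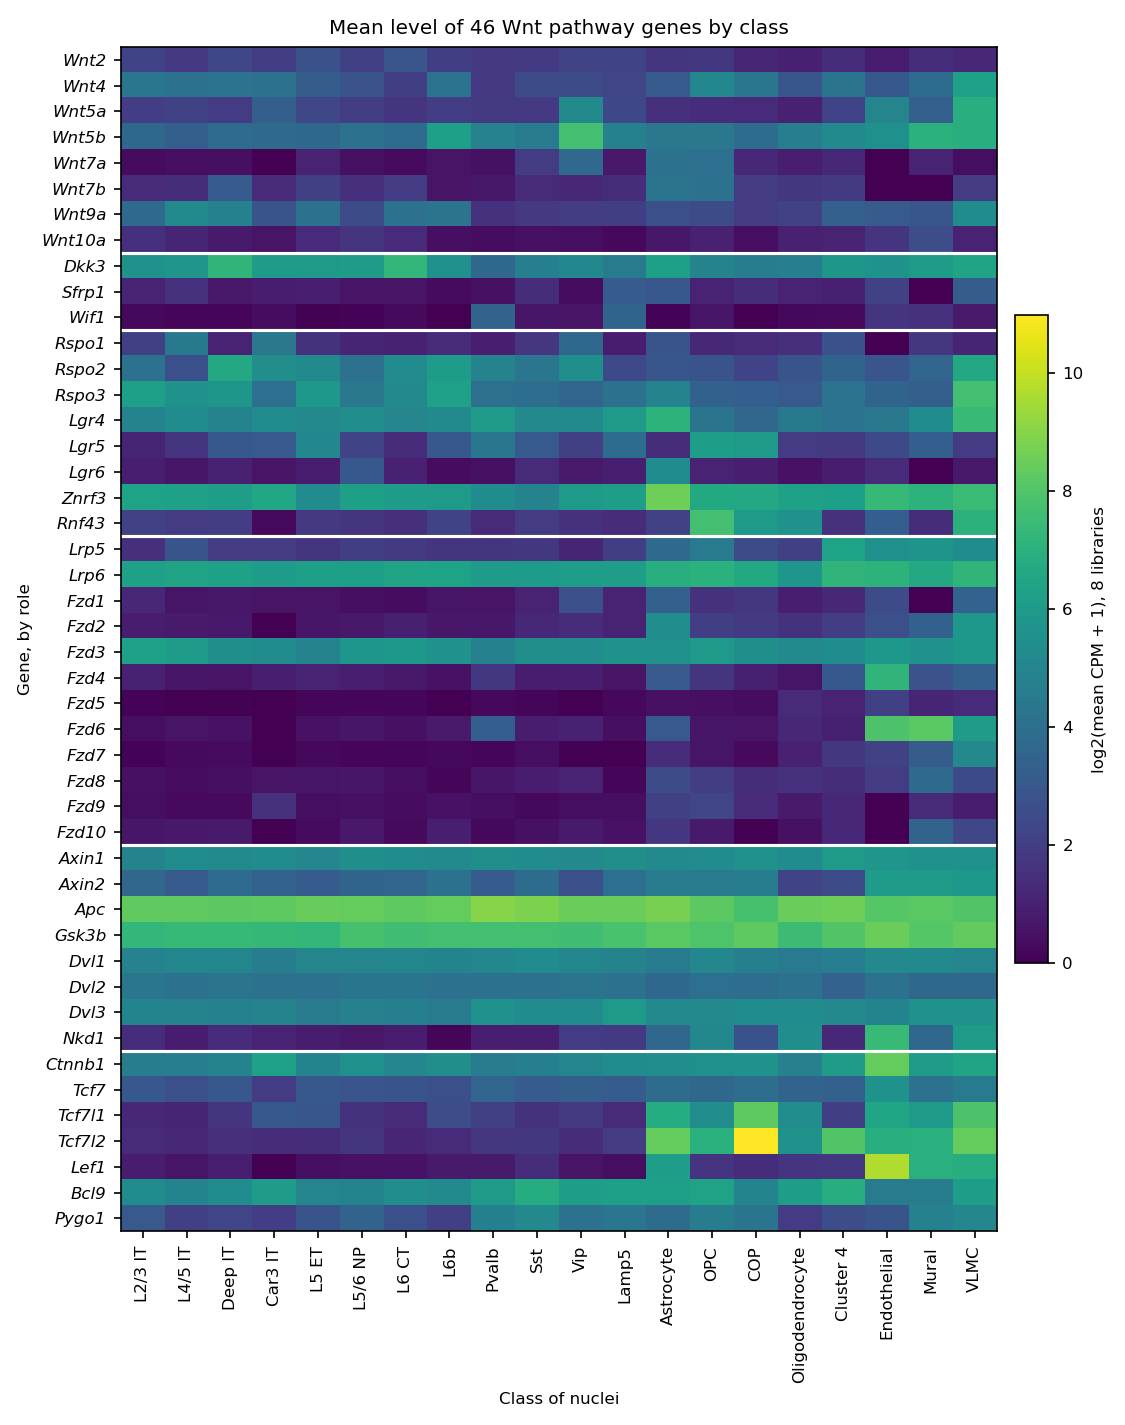
Mean level of the 46 members, in 6 blocks by role from Wnt ligands at the top to nuclear partners at the bottom, in the 19 classes and the microglia-like cluster 4. Colour is log2(mean CPM + 1) over 8 libraries. Tcf7l2 in COP and Lef1 in endothelial nuclei are the brightest cells of the nuclear block, and the relay genes Axin1, Apc, Gsk3b and Dvl1 to Dvl3 vary little across columns.

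The ligands differed in where they were found. Wnt5a, a ligand best known for signalling that does not use beta-catenin, was highest in VLMC. Its lowest, median and highest VLMC library had 104, 118 and 170 CPM (mean 122 ± 21.4), from 26 to 63 UMIs per library. Vip interneurons came second at 37.4 ± 8.60 CPM, between 21.7 and 52.2, and the ranges of these 2 classes did not overlap. The mean was 3.25 times as high in VLMC as in Vip nuclei. All other classes except endothelial nuclei (30.5 ± 20.5 CPM, 1 to 7 UMIs per library) were at 9.34 CPM or less.

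Wnt5b, its close relative, was highest in Vip interneurons, with a lowest, median and highest library of 166, 208 and 262 CPM (mean 209 ± 33.0). The mural mean of 128 ± 50 CPM and the VLMC mean of 121 ± 26.9 CPM followed, and the mural range of 46.8 to 220 overlapped that of Vip nuclei. Within the Vip class, cluster 27, in which Vip, Chat and Grpr were among the leading genes, held Wnt5b at 194 to 277 CPM in the 8 libraries. Cluster 55, in which Stac and Gpr149 were among the leading genes, held it at 0 to 48.6 CPM. The ranges of these clusters did not overlap. Wnt5a did not follow this division, with pooled values of 37.5 and 30.8 CPM in the same clusters. Wnt5b (10306 UMIs over all kept nuclei) overlaps the antisense gene Fbxl14 (1204 UMIs).

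Wnt7a and Wnt7b, the ligands known for their action on brain endothelium, were highest in astrocytes and OPC. Wnt7a was at 15.9 ± 7.04 CPM in astrocytes, 14.9 ± 5.49 in OPC and 12.3 ± 3.44 in Vip nuclei. Wnt7b was at 17.7 ± 3.55 CPM in astrocytes, 16.3 ± 3.24 in OPC and 7.53 ± 2.79 in Deep IT nuclei. For each gene the astrocyte and OPC ranges overlapped. Astrocyte Wnt7a was at 10.4 CPM on average in the single-indexed and 21.3 CPM in the dual-indexed libraries.

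Wnt4 was highest in VLMC at 77.8 ± 23.5 CPM, from 56.1 to 132, above OPC at 34.3 ± 7.0. Wnt9a was at 38.4 ± 11.3 CPM in VLMC and 37.0 ± 5.15 in L4/5 IT nuclei, which overlapped, and at 41.0 ± 6.23 in the unnamed excitatory cluster 9. Wnt2 was highest in L6 CT at 6.48 ± 1.24 CPM and in L5 ET at 5.50 ± 1.51, with overlapping ranges. Wnt10a was at 2.26 CPM or less in every class but the mural one, whose 5.09 CPM came from 1 UMI in 1 library.

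Of the secreted modulators, Dkk3, a Dickkopf relative, was highest in L6 CT at 154 ± 36 CPM and Deep IT at 146 ± 36.5, and lowest in Pvalb nuclei at 11.6. Dkk3 was also at 140.5 ± 15.8 CPM in the unnamed cluster 0, whose nuclei had few UMIs and in which Hbb-bt and Hbb-bs led. Wif1, which binds Wnt proteins outside the cell, was at 10.6 ± 3.89 CPM in Lamp5 and 10.1 ± 5.26 in Pvalb interneurons. Sfrp1, a secreted Frizzled-related antagonist, was at 8.38 ± 5.25 CPM in VLMC, 8.07 ± 3.01 in Lamp5 and 6.78 ± 2.79 in astrocytes. The highest classes of each gene overlapped in their ranges over libraries.

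Rspo1 had its highest mean in L4/5 IT neurons and Rspo2 and Rspo3 in VLMC, and L6b neurons held both of the latter. Rspo1 was highest in L4/5 IT nuclei at 20.5 ± 1.86 CPM, from 18.5 to 22.5, and the small Car3 IT class was at 19.6 ± 19.6. Rspo2 was at 98.3 ± 48.9 CPM in VLMC and 97.5 ± 24.4 in Deep IT, with L6b at 66.2 ± 24.5. Rspo3 was highest in VLMC at 205 ± 68.7 CPM, followed by L6b at 77.5 ± 17.0 and L2/3 IT at 72.5 ± 25.7. Rspo3 in L2/3 IT nuclei went with index type, at 87.2 to 99.6 CPM in the single-indexed and 39.0 to 75.9 CPM in the dual-indexed libraries. Such separation was common. In the 16 classes later tested for genotype it was seen in 56 of 399 pairs of member and class (14%). Of all pairs of gene and class, 17.8% showed it. The Rspo3 gene overlaps Gm48159 on the opposite strand (8726 UMIs over all kept nuclei), and the sources used here do not say whether counting used strand. Rspo1 (2991 UMIs) likewise overlaps Gm12930 (1736 UMIs).

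Within L4/5 IT nuclei the 3 clusters divided Rspo1. Cluster 6, in which Adam33 and Nell1 were among the leading genes, held Rspo1 at 28.9 to 41.3 CPM. Cluster 16 (Mamdc2, Lama4, Igfn1) held it at 16 to 27.4 CPM and cluster 17 (Barx2, Plxnd1) at 0.336 to 2.23 CPM. All libraries of cluster 17 thus lay below all of clusters 6 and 16. Wnt9a did not share this order, with a pooled 33.9, 28.1 and 49.1 CPM in clusters 6, 16 and 17. These clusters were formed without the Wnt genes.

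Within VLMC the ligands divided further. Cluster 73, in which Slc47a1, Tbx15 and Slc9a2 were among the leading genes, held Rspo3 at 434 to 865 CPM in the 8 libraries, from 518 UMIs in 237 nuclei. Cluster 74 (Spo11, Ptgds, Aebp1) held Rspo2 at 196 to 687 CPM, from 251 UMIs in 235 nuclei. Cluster 70 (Aox3, Bmp6, Slc7a11) held Wnt4 at 110 to 303 CPM and Wnt5a at 143 to 283 CPM. Pooled Rspo2 was 13.4 CPM in cluster 73 and 7.61 in cluster 70, and pooled Rspo3 was 4.20 CPM in cluster 74 and 13 in cluster 70. Wnt5a was also at 164 CPM (pooled) in cluster 74 and at 4.02 CPM in cluster 73. Tcf7l2 was found in all 5 clusters, at 263 to 423 CPM (pooled).

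**Figure D2:**
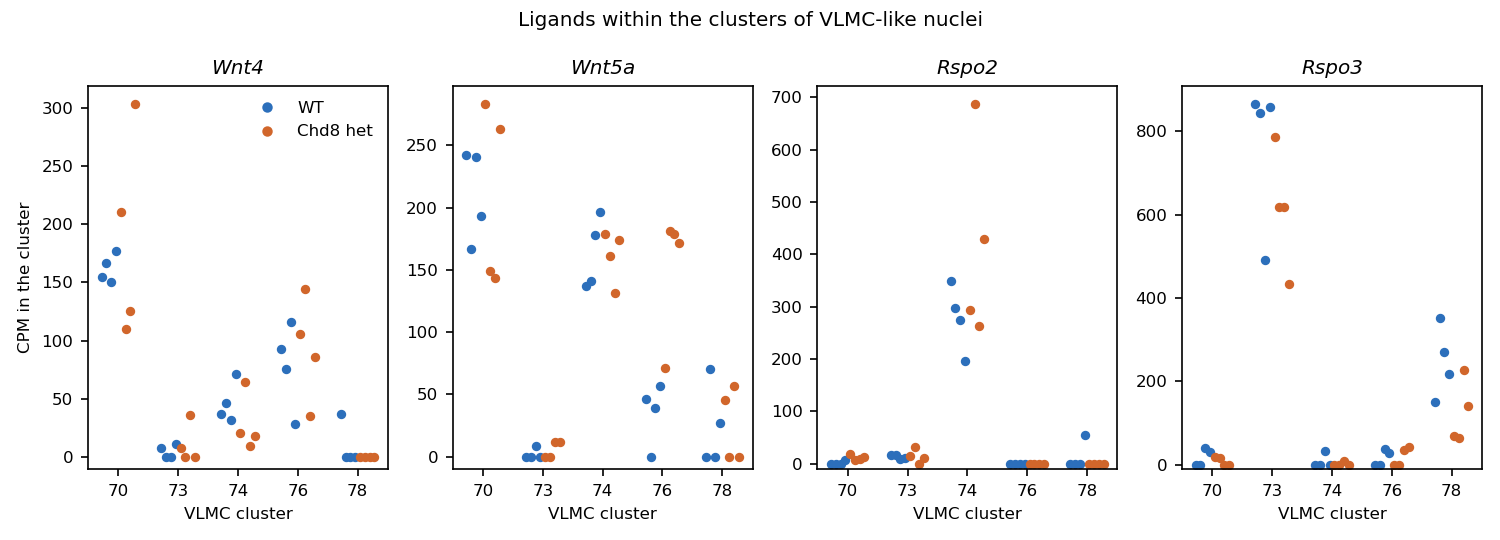
Wnt4, Wnt5a, Rspo2 and Rspo3 (CPM, 1 point per library, WT in blue and Chd8 het in orange) in the 5 clusters of VLMC-like nuclei, which were formed without the Wnt genes. Rspo3 is highest in cluster 73 and Rspo2 in cluster 74, and Wnt4 and Wnt5a have their highest pooled values, 179 and 211 CPM, in cluster 70. Clusters 76 and 78 hold 98 and 67 nuclei, so their points rest on few UMIs.

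Of the Lgr receptors for R-spondins, Lgr6 had its highest mean in astrocytes, Lgr5 in OPC and Lgr4 in VLMC, with astrocytes next for Lgr4. Lgr6 was highest in astrocytes, with a lowest, median and highest library of 25.0, 40.6 and 55.2 CPM (mean 39.6 ± 11.9). L5/6 NP nuclei came next at 7.22 ± 7.44 CPM, no library of which reached the lowest astrocyte library, and the ratio of the means was 5.48. In L5/6 NP it lay in a small cluster of 105 nuclei (cluster 59), where it was among the leading genes at a pooled 68.8 CPM, against 1.88 CPM in cluster 19. Cluster 59 had no nuclei in 2 libraries. It raised 3 of the 7 L5/6 NP markers, where cluster 19 raised 7, so its name is weaker. Lgr5 was highest in OPC at 70.3 ± 24.5 CPM and COP at 60.2 ± 26.6, then L5 ET at 33.4 ± 6.98. In OPC the dual-indexed libraries (75.6 to 104) and the single-indexed ones (38.9 to 55.7) did not overlap, as for 17.8% of all pairs of gene and class. Lgr4 was highest in VLMC at 168 ± 50.4 and astrocytes at 137 ± 34.5 CPM, and was lowest in COP at 11.4.

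The ubiquitin ligases that R-spondins oppose were both glial and vascular in their highest levels. Znrf3 was at 374 ± 27.3 CPM in astrocytes, from 325 to 405, above VLMC at 180 ± 29.6. Rnf43 was at 206 ± 51.1 CPM in OPC, 132 ± 43.0 in VLMC, 58.2 ± 18.6 in COP and 48.5 ± 10.9 in oligodendrocytes. In all neuronal classes Rnf43 was at 3.65 CPM or less.

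Among receptors, Lrp6 and Fzd3 were counted in every class, while each of the other Frizzled genes had its highest mean in a glial or vascular one, for 3 of them from very few UMIs. Lrp6 ranged from 54.2 CPM in oligodendrocytes to 146 ± 32.2 in VLMC, and Lrp5 was highest in the microglia-like cluster 4 at 81.3 ± 14.5. Fzd3, known for guiding axons, was highest in L2/3 IT at 76.6 ± 13.4 CPM and lowest in Pvalb at 27.2. Fzd4, the receptor for Norrin and Wnt in brain endothelium, was at 144 ± 70.5 CPM in endothelial nuclei, from 45.4 to 265. The next class was VLMC at 9.32 ± 5.63 CPM, and the ranges did not overlap. Fzd6 was at 282 ± 144 CPM in mural and 238 ± 50.9 in endothelial nuclei, followed by VLMC at 65.4 ± 13.8. Fzd7 was at 35.5 ± 16 CPM in VLMC and 8.12 in mural nuclei.

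Fzd2 was shared by VLMC at 56.1 ± 12.2 and astrocytes at 41.0 ± 16.6 CPM, and Fzd1 by the same classes at 10.1 ± 4.83 and 9.45 ± 4.0 CPM. Fzd8, Fzd9 and Fzd10 had 421, 275 and 353 UMIs in all kept nuclei, and Fzd5 had 96. For Fzd5, Fzd8 and Fzd10 the highest class rested on fewer than 1 UMI per library on average, so no class can be called highest. Fzd9 was at 3.90 ± 1.5 CPM in OPC and 3.19 ± 1.05 in astrocytes.

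Of the relay genes, Axin1, Apc, Gsk3b and Dvl1 to Dvl3 were counted in every class, while Nkd1 and Axin2 varied more between classes. Axin1 lay between 29.1 CPM in L2/3 IT and 51.6 ± 27.3 in endothelial nuclei, Dvl1 between 22.0 and 38.9 ± 2.37, Dvl2 between 11.6 and 19.0 ± 1.68, and Dvl3 between 21.2 and 59.2 ± 15.4. Gsk3b, the kinase of the destruction complex, was at 151 CPM in L2/3 IT and 349 ± 89.3 in endothelial nuclei. Apc, another protein of that complex, was highest in Pvalb interneurons at 508 ± 12.8 CPM, from 492 to 534, and next in Sst at 448 ± 18.0, from 417 to 479. Nkd1, a Dishevelled-binding inhibitor that the pathway itself induces in many tissues, was at 173 ± 81.6 CPM in endothelial nuclei, 62.2 ± 21.9 in VLMC and 41.2 ± 9.95 in oligodendrocytes. In neurons its highest mean was 2.75 CPM.

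Axin2, the most widely used transcriptional readout of beta-catenin signalling, was highest in the 3 vascular classes. Its lowest, median and highest endothelial library had 44.1, 58.2 and 110 CPM (mean 67.0 ± 27.1), from 2 to 17 UMIs per library. Mural nuclei had 66.5 ± 30.6 and VLMC 57.1 ± 12.7 CPM, and the 3 classes overlapped. COP, astrocytes and OPC followed at 23.5 ± 12.4, 21.8 ± 3.80 and 21.5 ± 6.74 CPM. Oligodendrocytes were lowest at 3.75 CPM. With each nucleus assigned by its own marker score, the endothelial mean of Axin2 was 33.2 CPM. Axin2 (6530 UMIs over all kept nuclei) overlaps the antisense gene Gm11670 (1774 UMIs).

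Ctnnb1, which encodes beta-catenin, was found in every class and was highest in endothelial nuclei. The lowest, median and highest endothelial library had 242, 317 and 530 CPM (mean 335 ± 88.0), from 17 to 51 UMIs. VLMC followed at 84.9 ± 15.8 CPM with no overlap, and Pvalb nuclei were lowest at 22.3. Ctnnb1 differed between the endothelial clusters. It was at 359 to 807 CPM in cluster 75 (Ly6c1, Cldn5, Ly6a) and at 121 to 283 CPM in cluster 72 (Mecom, Slco1a4, Cyyr1), with no overlap. With each nucleus assigned by its own marker score, the endothelial mean was 204 CPM. Ctnnb1 (chr9:120929216-120960507, plus strand, GRCm38) has 17412 UMIs over all kept nuclei and overlaps 2 antisense genes, Ulk4 and 4930593C16Rik, with 56627 UMIs together, whose reads cannot be told apart from its own if strand was not used.

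Of the 4 TCF and LEF genes, the DNA-binding partners of beta-catenin, Lef1 and Tcf7 had their highest means in endothelial nuclei and Tcf7l2 and Tcf7l1 in COP. Lef1 was highest in endothelial nuclei, with a lowest, median and highest library of 567, 816 and 1038 CPM (mean 806 ± 173). Mural nuclei had 124 ± 50.5, VLMC 112 ± 22.2 and astrocytes 69.7 ± 17.4 CPM. The endothelial range was separate from the mural one, whose highest library had 200 CPM, while the mural and VLMC ranges overlapped. The endothelial mean was 6.51 times the mural mean and 11.6 times the astrocyte mean, and the highest neuronal mean was 1.70 CPM. By own marker score the endothelial mean of Lef1 was 528 CPM.

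Tcf7l2, known as a factor of newly forming oligodendrocytes, was highest in COP. The lowest, median and highest COP library had 1835, 2021 and 2338 CPM (mean 2015 ± 154), from 743 to 1378 UMIs. Astrocytes had 334 ± 52.0, VLMC 328 ± 40.2, cluster 4 252 ± 65.0 and OPC 129 ± 22.2 CPM. Mature oligodendrocytes had 47.3 ± 12.7 CPM. Along the oligodendrocyte lineage the level thus stood at 129 in precursors, 2015 in committed precursors and 47.3 in oligodendrocytes, and no 2 of these ranges overlapped. The COP mean was 6.03 times the astrocyte mean. With each nucleus assigned by its own marker score, the COP mean was 1748 CPM.

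Tcf7l1 was at 301 ± 35.7 CPM in COP, 242 ± 46.6 in VLMC and 109 ± 23.5 in astrocytes. Tcf7 was at 46.8 ± 18.1 CPM in endothelial nuclei and 22.4 ± 9.72 in VLMC. Of the nuclear adaptors that join beta-catenin to the transcription machinery, Bcl9 was highest in cluster 4 at 113 ± 19.3 and Sst interneurons at 109 ± 19.0 CPM. Pygo1 was at 34.5 ± 4.61 CPM in Sst, 33.4 ± 10.9 in VLMC and 25.5 ± 3.91 in Pvalb nuclei.

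**Figure D3:**
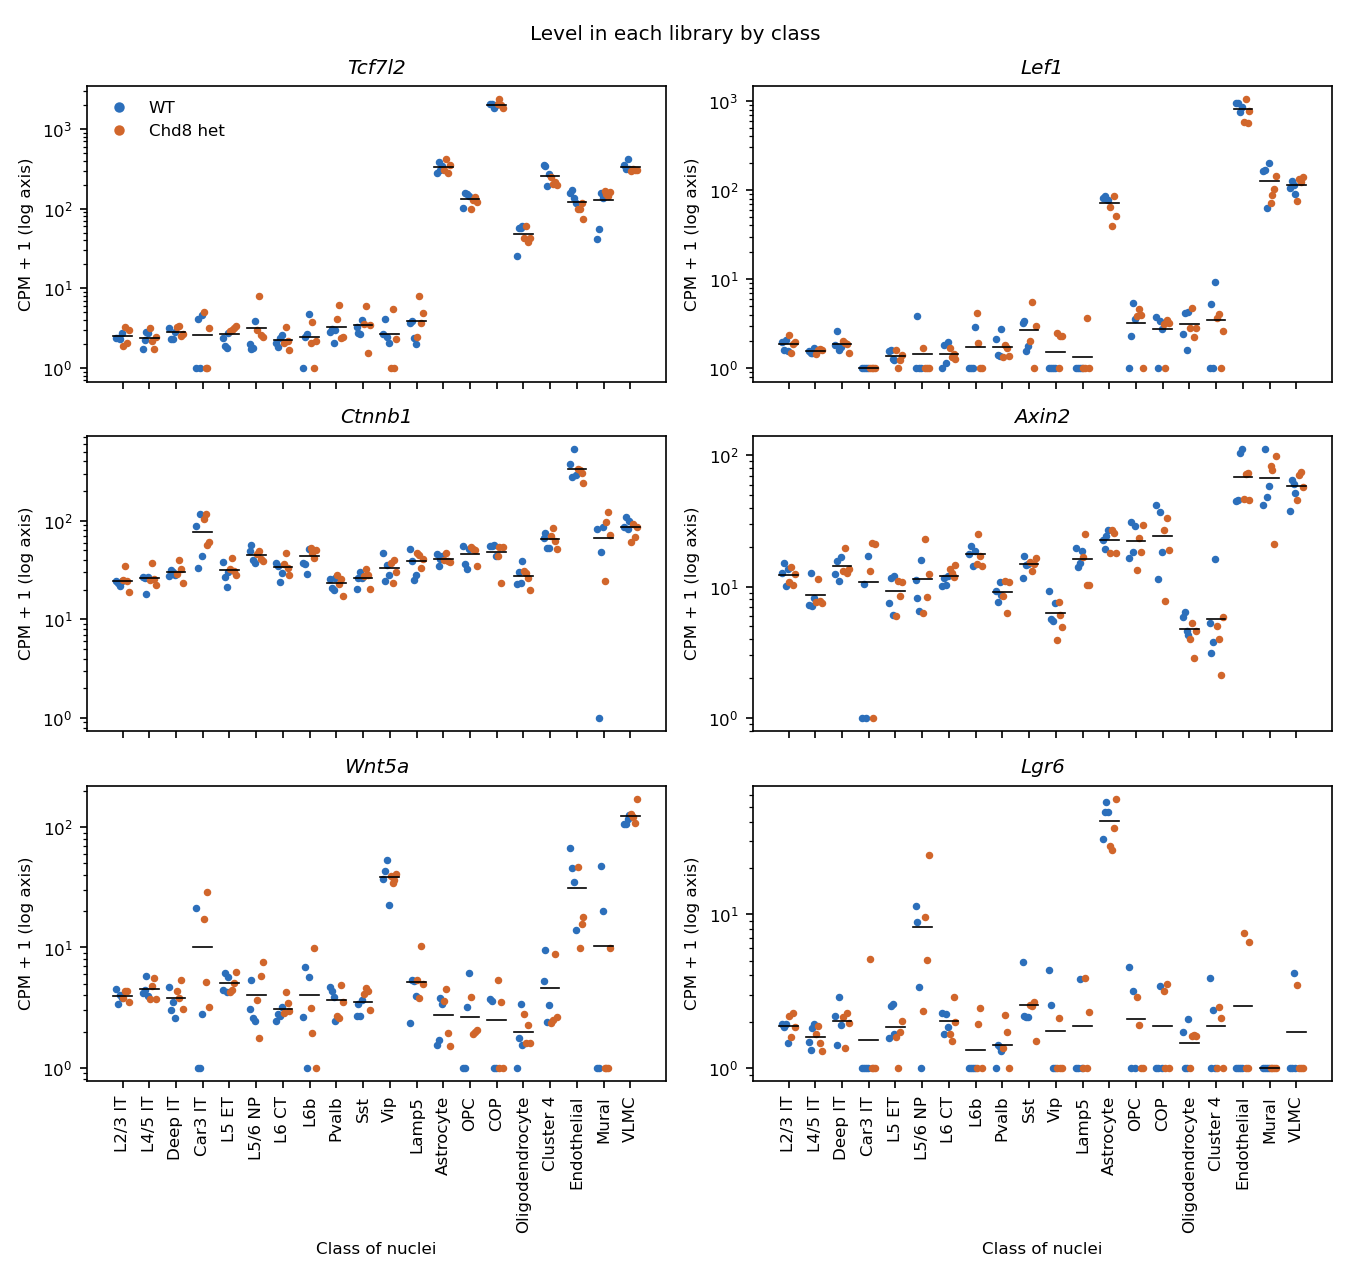
Level in each library (CPM + 1 on a log axis, WT in blue, Chd8 het in orange, bar at the mean of 8 libraries) of Tcf7l2, Lef1, Ctnnb1, Axin2, Wnt5a and Lgr6 in the 19 classes and cluster 4. Tcf7l2 lies between 1835 and 2338 CPM in COP and Lef1 between 567 and 1038 CPM in endothelial nuclei, above every library of every other class, and WT and Chd8 het points intermingle in these columns.

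Promoters of the members were read from RefSeq (build GRCm38.p6), and 38 promoters of 29 of the 46 members were searched. The other members were not searched, which does not mean that RefSeq lists no promoter for them. The 250 bases upstream of each start were searched on both strands for CTTTGA, read as TCAAAG from the other strand, the core letters bound by TCF and LEF factors. It was present in 4 of the 38 (10.5%), 1 each of Lef1, Fzd1, Wnt5b and Gsk3b, and in 13.8% of all 32851 promoters. As some members were left out of the search, these shares need not come from sets chosen alike, and their difference was not tested. The 4 promoters below are shown because the levels above turn on their genes, those of Lef1 (the last of 4 listed starts, with 2 matches), Wnt5b (the last of 3 listed starts, with 1 match), Tcf7l2 (the first of 2 listed starts) and Axin2. They are at chr3:131156044-131156293 (plus strand), chr6:119449387-119449636 (minus strand), chr19:55741560-55741809 (plus strand) and chr11:108920099-108920348 (plus strand), each written 5′ to 3′ with matches in capitals. A match is a description of letters, and no match says only that these letters are not in this window.
Lef1: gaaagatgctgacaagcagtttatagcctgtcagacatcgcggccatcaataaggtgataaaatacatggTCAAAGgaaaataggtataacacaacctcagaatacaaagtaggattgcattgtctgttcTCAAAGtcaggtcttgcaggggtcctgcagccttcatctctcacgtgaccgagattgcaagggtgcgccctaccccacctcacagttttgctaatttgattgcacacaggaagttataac
Wnt5b: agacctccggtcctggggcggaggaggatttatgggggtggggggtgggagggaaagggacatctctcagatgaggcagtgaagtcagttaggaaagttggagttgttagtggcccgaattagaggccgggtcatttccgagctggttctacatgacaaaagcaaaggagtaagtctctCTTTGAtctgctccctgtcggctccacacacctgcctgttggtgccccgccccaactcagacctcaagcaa
Tcf7l2: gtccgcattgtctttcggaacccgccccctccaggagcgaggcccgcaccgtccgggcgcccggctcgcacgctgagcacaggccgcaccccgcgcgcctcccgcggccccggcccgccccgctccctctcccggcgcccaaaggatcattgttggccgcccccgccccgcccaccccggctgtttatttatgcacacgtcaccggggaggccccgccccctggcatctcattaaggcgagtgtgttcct
Axin2: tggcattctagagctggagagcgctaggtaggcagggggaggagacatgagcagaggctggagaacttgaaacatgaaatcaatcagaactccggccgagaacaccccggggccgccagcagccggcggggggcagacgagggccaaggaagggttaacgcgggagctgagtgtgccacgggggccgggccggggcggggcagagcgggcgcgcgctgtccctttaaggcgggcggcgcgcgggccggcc

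No member differed between genotypes at an adjusted p under 0.05. This held in each of 16 classes with at least 30 nuclei per library, tested with edgeR quasi-likelihood on summed counts with Benjamini-Hochberg adjustment over all genes of a class. It held over all kept nuclei as well, where all 46 were tested. In the 16 classes 399 pairs of member and class passed the filter on low counts, from 16 members in COP to 39 in L2/3 IT, and 11 were tested in every class. Fzd5, Fzd8 and Fzd9 passed in none. At an unadjusted p under 0.05 there were 11 of 399 (2.76%), 3 higher and 8 lower in Chd8 het. Among all 175541 tests of gene and class, 2.35% met that limit (1.31% higher, 1.04% lower), and 0% were called. The lack of calls is thus not particular to the members, and it does not show that their levels are unchanged. The DESeq2 Wald test called 0 members and 0.00342% of all tests, with 7 of the 399 tests (1.75%) at an unadjusted p under 0.05 against 1.08% of all tests. With a block for each pair of sex and replicate number 0 members and 0.0484% of all tests were called, with 19 of the 399 tests (4.76%) at an unadjusted p under 0.05 against 6.24% of all tests. Over all kept nuclei 0 of the 46 had an unadjusted p under 0.05 by edgeR and 0 by DESeq2, against 1.33% of all genes by edgeR and 1.44% by DESeq2. Of all genes there, edgeR called 0% and DESeq2 0.0236%. With the pair as a block Fzd9, Nkd1 and Fzd2, higher in Chd8 het in all 4 pairs, were at an unadjusted p under 0.05 (3 of 46, 6.52%, against 6.38% of all genes), and 0 members were called (0% of all genes). With an index type term 2 of the 46 were (4.35%, Fzd9 and Nkd1, against 5.58% of all genes), also with 0 calls (0%). The median log2 change (Chd8 het minus WT) over the 399 was -0.0020, against -0.00061 for all tests, with 197 higher and 202 lower. Medians of the members in the 16 classes ran from -0.10 in VLMC to 0.06 in L2/3 IT.

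The genes at the centre of the pathway did not pass the test over all kept nuclei. Ctnnb1 was at 28.9 ± 2.47 CPM in WT and 32.2 ± 6.28 in Chd8 het (log2 change 0.11, SE 0.11). Tcf7l2 was at 32.4 ± 2.53 and 34.1 ± 8.01 CPM (0.03, SE 0.15), Lef1 at 4.83 ± 0.651 and 4.95 ± 0.419 (0.0044, SE 0.14), and Axin2 at 11.3 ± 1.91 and 11.6 ± 2.19 (-0.01, SE 0.17). The groups overlapped for all 4 genes, and the adjusted p was 0.9999 for each by edgeR with Benjamini-Hochberg adjustment. In COP, Tcf7l2 was at 1976 ± 89.2 CPM in WT and 2053 ± 209 in Chd8 het (log2 change 0.03, SE 0.13), and the change was 0.16 by own marker score. In endothelial nuclei, a class tested although it fell below 30 nuclei in 1 library, Lef1 was at 874 ± 91.5 and 738 ± 222 CPM (-0.25, SE 0.24) and Ctnnb1 at 369 ± 115 and 302 ± 41.7 CPM (-0.26, SE 0.30). Over the alternatives the endothelial log2 change ran from -0.41 (without Chd8 het male 2) to -0.038 (by own marker score) for Lef1 and from -0.43 (without WT male 2) to 0.014 (without WT female 1) for Ctnnb1.

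For the 10 tests with the smallest unadjusted p, the adjusted p by edgeR with Benjamini-Hochberg adjustment was at least 0.996 without a block and at least 0.0826 with it, so none passed the test. Their values in each library are given next, with a log2 change under another setting where it moved by over 1.5 times. Tests named for a small p were picked from these same libraries, so agreement of their pairs in direction follows in part from that choice. How often pairs agree over all tests was not counted, nor was it for the shares of clusters. Of 21 marker lists compared between genotypes in each of their classes, 2 did not overlap in COP, 1 each in OPC, VLMC and Vip and 0 in L5 ET and astrocytes, and those 5 lists are the ones given.

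Lgr5 in L5 ET nuclei had the smallest. Lgr5 (4040 UMIs over all kept nuclei) overlaps A930009A15Rik on the opposite strand (2644 UMIs), whose reads cannot be told apart from its own if strand was not used. In L5 ET nuclei Lgr5 was at 42.8, 31.6, 39.6 and 39.7 CPM in the WT libraries, always listed as both males and then both females by replicate, and at 25.7, 23.3, 33.8 and 30.3 CPM in the Chd8 het libraries in the same order. The heterozygote was lower in all 4 pairs, by 11.5 CPM on average in the single-indexed and 8.84 CPM in the dual-indexed libraries, while the groups overlapped. The log2 change was -0.50 (SE 0.14, unadjusted p 0.0044, adjusted p 0.9998 by edgeR with Benjamini-Hochberg adjustment). With the replicate block the unadjusted p was 0.00043 and the adjusted p 0.0826.

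The class is made of clusters 13 and 36, and Lgr5 was among the 3 leading genes of cluster 36 although the clustering did not use it. Cluster 36 made up 26.5, 22.7, 32.9 and 20% of L5 ET nuclei in the WT libraries and 19.4, 11.8, 24.1 and 16.6% in the Chd8 het libraries, lower in all 4 pairs. Within cluster 36 Lgr5 was at 103, 62.6, 102 and 119 CPM in WT and 86.7, 89.0, 94.3 and 84.5 CPM in Chd8 het libraries, lower in 3 of 4 pairs. Within cluster 13 it was at 20, 20.9, 11.3 and 18.5 CPM in WT and 12.7, 14.0, 15.1 and 17.6 CPM in Chd8 het, also lower in 3 of 4. The share of cluster 36 therefore moved with the class value, and its part in the difference was not tested.

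**Figure D4:**
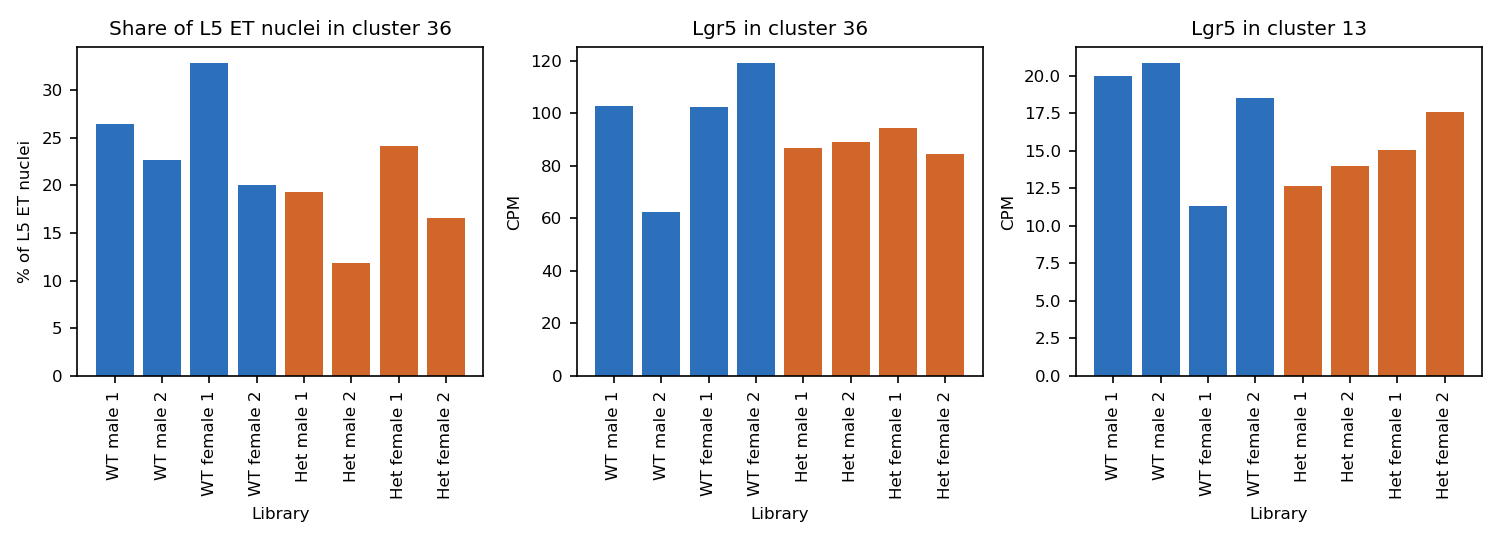
Share of L5 ET nuclei that lie in cluster 36 (percent) and Lgr5 (CPM) in clusters 36 and 13, 1 bar per library, WT in blue and Chd8 het in orange, axes from 0. The share is lower in the Chd8 het library of each of the 4 pairs, and the Lgr5 bars of the genotypes overlap in both clusters.

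Rnf43 was lower in the heterozygote of all 4 pairs in COP. It was at 87.6, 83.8, 62.9 and 52.1 CPM in WT and 47.5, 45.8, 50 and 35.8 CPM in Chd8 het libraries, and the groups did not overlap (log2 change -0.68, SE 0.23, unadjusted p 0.0074). By own marker score the log2 change was -0.45. Groups without overlap were found in 10 of the 399 tests (2.51%) and in 2.02% of all tests. The library sums were 16 to 32 UMIs. In COP the 7 VLMC markers summed to 7.85 to 43.5 CPM in WT and 5.0 to 6.71 CPM in Chd8 het, and the 7 Deep IT markers to 196 to 233 and 240 to 309 CPM, with 1 marker of each list at 0. The COP libraries held 365350 to 589338 UMIs, so the VLMC sums rest on few UMIs. The part of these markers in the result was not tested. In OPC, where Rnf43 is highest, it was at 177, 287, 243 and 229 CPM in WT and 149, 167, 155 and 245 CPM in Chd8 het libraries. The groups overlapped and 3 of 4 pairs were lower (log2 change -0.42, SE 0.18, unadjusted p 0.037). Without WT male 2 the log2 change was -0.22. The 7 mural markers in OPC summed to 6.53 to 16.1 CPM in WT and 18.8 to 38.0 in Chd8 het.

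In VLMC 3 of the 10 were found, and the shares of its clusters varied between libraries. By edgeR 3 of 29 members tested there (10.3%) had an unadjusted p under 0.05, against 3.43% of all genes. With the replicate block 5 of 29 did (17.2%), against 5.43% of all genes. The excess was not tested, and 0 members were called. Rspo2 was at 84.7, 80.5, 56.5 and 65.8 CPM in WT and 79.0, 205, 79.8 and 135 CPM in Chd8 het libraries. It was higher in 3 of 4 pairs, by 8.79 CPM on average in the single-indexed and 96.8 CPM in the dual-indexed libraries (log2 change 0.76, SE 0.27, unadjusted p 0.011). The log2 change was 0.46 without Chd8 het male 2 and 1.61 by own marker score. Cluster 74, which holds most Rspo2 of the class, made up 17.3, 21.2, 17.8 and 24.8% of the class in WT and 23.3, 22.7, 24.8 and 26.7% in Chd8 het libraries, higher in all 4 pairs. Within it Rspo2 was at 349, 298, 275 and 196 CPM in WT and 294, 687, 263 and 430 CPM in Chd8 het libraries, so the genotypes overlapped and the dual-indexed heterozygotes were highest.

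Rspo3, carried in the same class by another cluster, had lower means in the heterozygotes. It was at 311, 229, 217 and 220 CPM in WT and 262, 129, 168 and 102 CPM in Chd8 het libraries, lower in all 4 pairs (log2 change -0.58, SE 0.23, unadjusted p 0.020). Without Chd8 het male 1 the log2 change was -0.87. Cluster 73, which holds most Rspo3, made up 31.7, 19.2, 31.6 and 17.0% of VLMC nuclei in WT and 21.5, 19.1, 20.3 and 15.8% in Chd8 het libraries. This was lower in all 4 pairs, though nearly level for male replicate 2. Within it Rspo3 was at 865, 844, 492 and 858 CPM in WT and 787, 618, 619 and 434 CPM in Chd8 het libraries, lower in 3 of 4.

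Lrp6 in VLMC was at 169, 169, 201 and 137 CPM in WT and 121, 110, 112 and 151 CPM in Chd8 het libraries (log2 change -0.45, SE 0.19, unadjusted p 0.031), lower in 3 of 4 pairs. By own marker score the log2 change was -0.73. In cluster 70 Lrp6 was at 203, 209, 231 and 113 CPM in WT and 64.0, 62.9, 80.6 and 128 CPM in Chd8 het libraries, from 7 to 23 UMIs, lower in 3 of 4 pairs and with overlap. In cluster 73, where pooled Lrp6 was highest (181 CPM), it was at 174 to 250 CPM in WT and 111 to 193 CPM in Chd8 het libraries. The 7 microglia markers in VLMC summed to 185 to 206 CPM in WT and 236 to 304 CPM in Chd8 het without overlap, and their part in these results was not tested.

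In Vip interneurons Rspo2 was at 61.2, 73.9, 31.3 and 44.4 CPM in WT and 38.2, 40.1, 29.2 and 31.6 CPM in Chd8 het libraries, lower in all 4 pairs although the groups overlapped (log2 change -0.62, SE 0.22, unadjusted p 0.010). Rspo2 in this class lay in cluster 27 (252 UMIs, against 3 in cluster 55), which made up 83.5 to 93.5% of WT and 82.5 to 86.5% of Chd8 het nuclei. Axin1 in Vip nuclei was at 33.1, 28.3, 19.4 and 28.2 CPM in WT and 27.9, 50.1, 43.2 and 48.6 CPM in Chd8 het libraries, higher in 3 of 4 pairs (log2 change 0.62, SE 0.25, unadjusted p 0.027). In Vip nuclei the 7 L6 CT markers summed to 547 to 629 CPM in WT and 643 to 686 CPM in Chd8 het, which was not tested as a part of either result.

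Tcf7l1 (5868 UMIs over all kept nuclei) overlaps the antisense genes Gm15401 and Gm15402 (1384 UMIs together). In L5 ET it was low, at 3.69, 3.04, 9.17 and 3.33 CPM in WT and 4.45, 5.65, 9.82 and 13.7 CPM in Chd8 het libraries, from 10 to 68 UMIs. It was higher in all 4 pairs, by 0.708 CPM in the single-indexed and 6.47 CPM in the dual-indexed libraries (log2 change 0.75, SE 0.31, unadjusted p 0.037). The log2 change was 0.43 without WT female 2 and 0.29 by own marker score. Lef1 in astrocytes was at 79.6, 85.3, 77.8 and 76.7 CPM in WT and 64.1, 37.9, 85.3 and 50.5 CPM in Chd8 het libraries. It was lower in 3 of 4 pairs, by 3.98 CPM in the single-indexed and 36.8 CPM in the dual-indexed libraries (log2 change -0.46, SE 0.20, unadjusted p 0.043). Without Chd8 het male 2 the log2 change was -0.28. The 4 WT libraries lay close together, and 1 Chd8 het library was level with them.

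**Figure D5:**
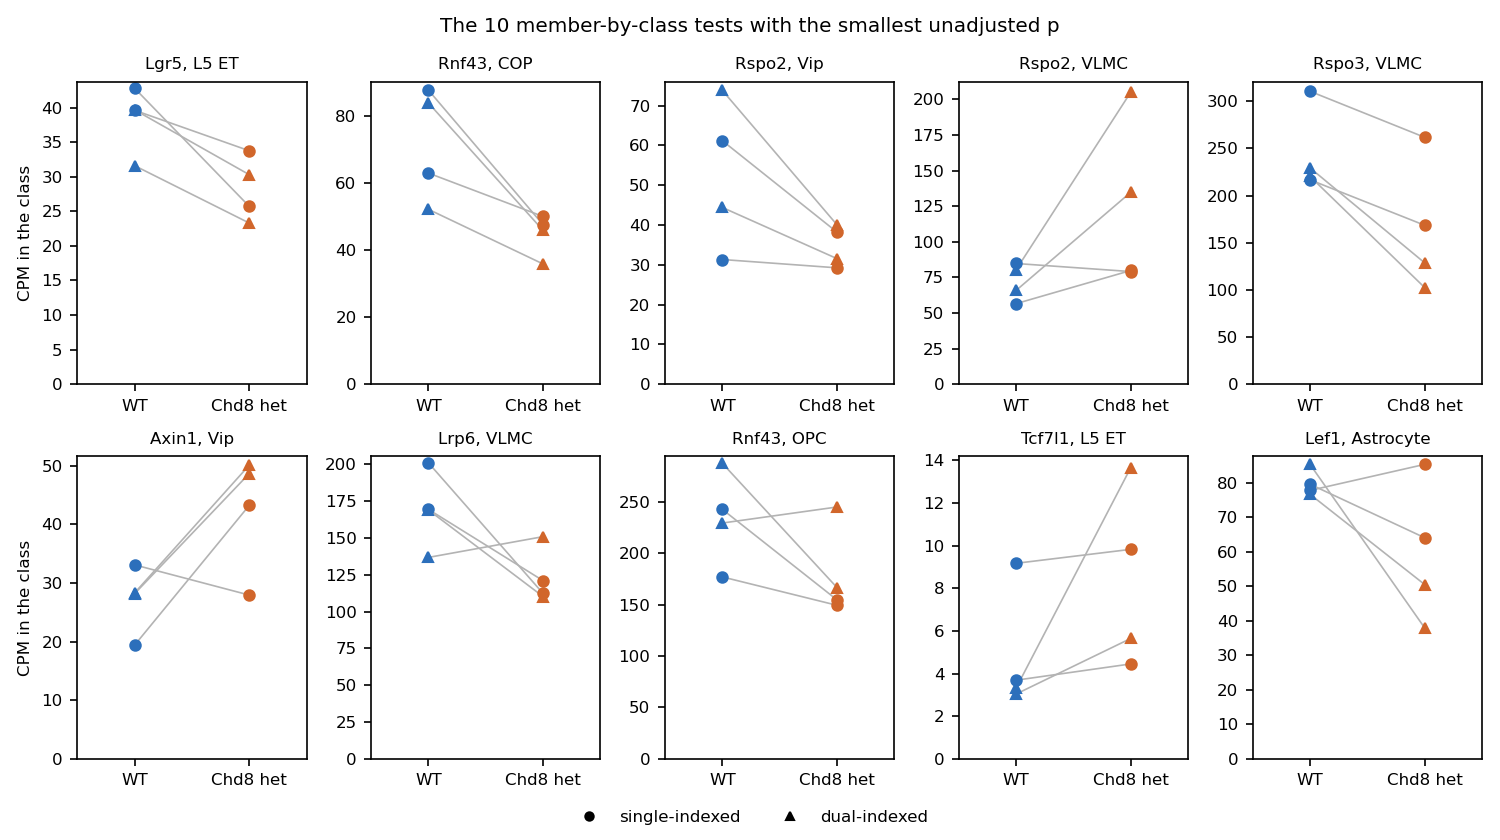
The 10 tests of member and class with the smallest unadjusted p, CPM in each library (circles single-indexed, triangles dual-indexed), each axis from 0. A line joins each WT library to the Chd8 het library of the same sex and replicate number. Of these 10, the groups do not overlap only for Rnf43 in COP, and none of the 10 passed the adjusted test.

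The same fits in 3 small classes and 4 numbered clusters, added after their sizes were known, gave 0 calls by edgeR (0% of all tests) and 3 of 114 member tests (2.63%) at an unadjusted p under 0.05, against 2.31% of all tests. DESeq2 gave 0 calls among the members (0.00397% of all tests) and 1 such test (0.877%, against 1.02% of all tests). Tcf7l2 in the microglia-like cluster 4 was at 288 ± 76.2 CPM in WT and 216 ± 24.6 in Chd8 het (log2 change -0.38, SE 0.16, unadjusted p 0.027). The others were Nkd1 in cluster 9 (1.40, SE 0.59) and Dvl2 in cluster 15 (-0.41, SE 0.19). Median log2 changes of the members in these groups ran from -0.26 in endothelial nuclei to 0.12 in cluster 4. The endothelial value rests on 10 members, 1 higher and 9 lower, against a median of 0.0073 for all genes there. That class had 29 to 93 nuclei per library, and the shift was not tested.

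Whether the genotype difference itself differed between the sexes was tested by an interaction term. No member was called by edgeR, and 6 of 399 tests (1.5%) had an unadjusted p under 0.05 (1.33% of all tests did). The one with the smallest p was Lgr5 in Lamp5 interneurons (0.015). It was at 26.8 and 20.4 CPM in WT males, 4.35 and 5.67 in Chd8 het males, 21.1 and 4.90 in WT females and 12 and 15.9 in Chd8 het females.

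Other genes of the pathway were taken from a list of 79 further Wnt genes, 78 of which were counted. In the 16 classes they gave 649 tests, 0 calls by edgeR, and 9 (1.39%) at an unadjusted p under 0.05 (3 higher and 6 lower), against 2.35% of all tests. DESeq2 gave 2 such tests (0.308%, against 1.08% of all tests). Their median log2 change was 0.0056. The smallest p belonged to Ctnnbip1, an inhibitor that keeps beta-catenin from TCF factors, in L5 ET. It was at 22.1, 22.5, 28.6 and 23.7 CPM in WT and 30.8, 31.9, 37.4 and 31.1 CPM in Chd8 het libraries, higher in all 4 pairs and without overlap (log2 change 0.39, SE 0.12, unadjusted p 0.0095, adjusted p 0.9998 by edgeR with Benjamini-Hochberg adjustment). The next were the co-repressor Tle2 in L2/3 IT (0.51, SE 0.19), the Apc-binding Amer2 in Pvalb (-0.56, SE 0.23), the Wnt receptor Ryk in Lamp5 (-0.44, SE 0.19) and the Norrin co-receptor Tspan12 in oligodendrocytes (1.03, SE 0.44).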

How the data were processed

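UMI counts per gene and nucleus in 8 libraries were analysed as the authors deposited them. Per the submitters' processing notes the tools were STAR 2.7.9a, STARsolo and Cell Ranger and the build mm10. Annotation, intron counting and strand are each not given in the sources used here. Nuclei with at least 500 genes and at most 5% mitochondrial UMIs were kept, and doublets predicted by Scrublet (scanpy 1.11.5, Python 3.11.15, 0.8% expected per 1000 nuclei) were removed. Clusters (igraph 0.11.9) were formed without the Wnt genes and named from marker lists. Rules added after the clusters were seen required the gene that names a Car3, Pvalb, Sst, Vip or Lamp5 class to be raised and leading genes to reach 50 CPM. UMI counts were summed per library and class and tested with edgeR 4.0.16 (R 4.3.3; quasi-likelihood, sex and genotype as terms, genes filtered at a minimum count of 10, Benjamini-Hochberg over all genes of a class, called at 0.05), with DESeq2 1.42.0 as an alternative. The procedure was run on simulated counts for L2/3 IT, OPC and endothelial nuclei. These were drawn without pair or index type effects, so they do not show how the test behaves where such effects are present. The members, the gene lists and the marker lists were chosen with earlier results of these data known. Values in every library were given for members at least 3 times higher in a class than in any other broad group with at least 20 UMIs per library, for the 10 tests with the smallest p, for called genes, and for Ctnnb1, Tcf7l2, Lef1 and Axin2. The cluster values within classes and the tests in 7 further groups were added after the data were seen. Deviations from the genotype means of libraries with the same sex and replicate number correlated at 0.415 to 0.624 over all kept nuclei. Over all nuclei and classes, 67 of 68 such correlations were over 0.1. Such libraries also share sex and index type, which these deviations keep, so the correlations cannot show that they share a litter. The mice are described as pairs matched for litter and sex, but the titles do not say which mice share a litter. Pairs were therefore taken by sex and replicate number. Replicate number goes with index type, so pair and index type cannot be told apart within a sex. Each library is 1 mouse, and ranges over few UMIs carry counting error as well.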

Additional observations from a re-analysis of the deposited data

Results flagged for a closer look

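In 40 groups of 4 libraries checked, 4 had a library far from the other 3, where chance gives about 1 in 20. Rspo3 in VLMC was 310.6 CPM in WT male 1, the other WT libraries lying between 216.7 and 229.3. Tcf7l1 in L5 ET was 9.169 CPM in WT female 1, the others between 3.041 and 3.688. Over all kept nuclei, Tcf7l2 was 28.63 CPM in WT male 1, below the others at 33.33 to 34.15, and 46.1 CPM in Chd8 het male 2, above the others at 29.61 to 30.82.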

How the results depend on the processing

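The alternatives were DESeq2 size factors, the DESeq2 Wald test, no low-count filter, doublets kept, a stricter nucleus filter, class by own marker score, an index type term, the replicate block and each library left out. All 61 alternative values of the counts led with were classed as the same as those reported, being equal to them or near them in size. For counts of called members this says little. In the 16 classes the main fits called 0% of all tests, the DESeq2 Wald test 0.00342% and the replicate block 0.0484%. A count of 0 called members was thus nearly fixed in advance. For the count of members highest outside neurons, a near value does not show that each member kept its highest class. How many members kept it is given at the end of this paragraph. The number of member-by-class tests at an unadjusted p under 0.05 ran from 7 to 21. The replicate block, which uses the pairing by sex and replicate number, gave 0 calls among the members in the classes and changed no call of a member. Leaving out 1 library each, log2 changes ran from -0.13 to 0.090 for Tcf7l2 over all nuclei, from -0.025 to 0.063 for Tcf7l2 in COP, from 0.024 (without Chd8 het male 2) to 0.20 (without WT female 2) for Ctnnb1 over all nuclei, from -0.43 to 0.014 for Ctnnb1 in endothelial nuclei and from -0.071 to 0.093 for Lef1 over all nuclei. By library left out, the log2 change of Tcf7l2 over all nuclei became -0.059 without WT male 1 and -0.13 without Chd8 het male 2, that of Tcf7l2 in COP -0.025 without Chd8 het male 2, and that of Ctnnb1 in endothelial nuclei 0.014 without WT female 1. Lef1 over all nuclei was -6.475e-05 by the DESeq2 Wald test, -0.072 under the stricter filter, and between -0.071 and -0.031 in the 4 libraries' omissions that turned it (-0.046 without WT male 1, -0.036 without Chd8 het male 2). Axin2 over all nuclei was 0.0048 with doublets kept and 0.053, 0.11, 0.078 and 0.044 without WT male 2, WT female 2, Chd8 het male 1 and Chd8 het female 1, and its lowest value was -0.13 without Chd8 het male 2. The cause was not tested. With DESeq2 size factors Wnt5a in VLMC was 98.2 CPM. The highest class was the same for 46 members with doublets kept, 39 with DESeq2 size factors, 35 by own marker score and 30 under the stricter filter, which left 17 of 19 classes because endothelial and mural nuclei were too few. Leaving out 1 library each it was the same for 37 (without WT male 1) to 45 members.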
